A study of Mus musculus with 2 samples.

Results

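The genes described here are the 7 mammalian SET-domain proteins of the KMT2 and SETD1 family (Kmt2a, Kmt2b, Kmt2c, Kmt2d, Kmt2e, Setd1a and Setd1b) and 3 proteins that join KMT2C and KMT2D in their complexes (Kdm6a, Paxip1 and Ncoa6). They are 10 of the 18193 genes that a probe set of the platform annotation names alone, and the rule takes them by name. Every probe set that the annotation pairs with only 1 of these symbols was taken, which gave 28 probe sets. No probe set listed one of these symbols together with another gene. The values come from 2 Affymetrix 3' expression arrays of the mouse embryonic stem cell line E14. One array was hybridised with RNA from cells carrying an shRNA for Mll2, and the other with RNA from cells carrying a control shRNA. Both hairpins were delivered by lentivirus, and the protocol gives 24 h of infection and 5 days of puromycin selection. The cells are therefore a selected, infected population in both groups. The hairpin sequences, and whether the selected cells were pooled or cloned, are not stated in the labels.

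Enzymes of this family place methyl groups on lysine 4 of histone H3, a mark of promoters and enhancers. KMT2A and KMT2B act mainly at promoters of developmental genes, SETD1A and SETD1B provide most promoter trimethylation, and KMT2C and KMT2D deposit monomethylation at enhancers. These enzymes work in complexes built on the shared subunits WDR5, RBBP5, ASH2L and DPY30. KMT2E also has a SET domain but is not known as an active H3K4 methyltransferase. The name Mll2 is ambiguous in mouse, since it has stood for Kmt2d as well as for Kmt2b, and the labels do not settle which was meant.

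With 1 array in each group, no difference could be tested, and p-values are not given. Differences are the Mll2 shRNA value minus the control value on the log2 scale, and the floor is a log2 value of 6.02 (a signal of 64.7), the median of all values on both arrays. A gene counts as measured if a probe set exceeds the floor on at least 1 array, and it is represented by its probe set with the highest mean. As a yardstick in place of replicates, the spread at a gene's level is a robust SD of the differences of the 500 genes nearest in mean signal. Real differences widen it along with noise, and variation between cultures is not part of it. Every difference, of members and of all genes alike, is set against the spread as a distance from 0. The median of the 500 genes, about which the spread is taken, ran from -0.01 to 0.12 for the measured member probe sets. Calls close to the spread depend on this choice, namely those of Kmt2c 1427150_at, Setd1b 1440836_at, Kdm6a 1427235_at and Kdm6a 1427672_a_at. On whole arrays, the medians were 6.01 and 6.02, Pearson's r between the arrays was 0.93 over all probe sets, which do not replicate each other, and the median difference of the 11805 measured genes was 0.03. The embryonic stem cell markers were present, with all 8 above the floor on each array and log2 values running from 9.49 to 13.7 in Mll2 shRNA cells and 9.90 to 13.9 in control cells. In 7 of the 8 the difference was larger than the spread at that level, beside 33.5% of all measured genes. These differences lay in both directions, from -0.44 for Pou5f1 to 0.59 for Klf4. Esrrb, at 0.53 in the probe set used, was at -0.22 (spread 0.28) in 1441921_x_at. In 1422986_at, above the floor on only 1 array, it was at 0.75 (spread 0.60). The direction of Esrrb thus depended on the probe set. Of 5 markers of differentiated lineages, 3 (Pax6, Cdx2 and Gata6) were above the floor on both arrays, with differences of 0.06, -0.33 and 0.03. Sox17, above it on only 1 array, was at 0.59 (spread 0.50). Of 6 fibroblast markers 2 were above the floor on both arrays, Col1a2 (0.70, spread 0.50) and Col3a1 (0.34, spread 0.37). Col1a1, above it on only 1 array in the probe set used, went the other way, at -0.58 (spread 0.28). In its other probe set, 1423669_at, the log2 values were 6.02 in Mll2 shRNA cells, at the floor, and 3.66 in control cells, below it. The direction of Col1a1 is thus not settled. The part of these differences in those of the 10 genes was not tested.

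All 10 genes were measured. Of their 28 probe sets 24 were above the floor on both arrays and 4 were below it on both. By the representative probe set, 6 genes were lower and 4 higher in Mll2 shRNA cells, and the median difference was -0.06, beside 46.5% of measured genes below 0 and a median of 0.03 over all of them. Of the 24 measured probe sets, 12 were below 0 and 12 above, beside 46.8% below 0 among all 20894 measured probe sets. One gene, Kmt2d, was lower by at least 2-fold, beside 0.983% of all measured genes, and 0 genes were higher by at least 2-fold, beside 1.47%. At 1.5-fold the count was 1 lower (Kmt2d), beside 4.68% of all genes, and 1 higher (Kmt2e), beside 7.4%. In 4 of the 10 genes (Kmt2d, Paxip1, Kmt2c and Kmt2e) the difference was larger than the spread at that level, beside 33.5% of all measured genes, and in 9 of the 24 probe sets, beside 32.2% of all measured probe sets. By sign and by the spread, the 10 genes as a set lay near the background, and what follows concerns single members.

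**Figure D1:**
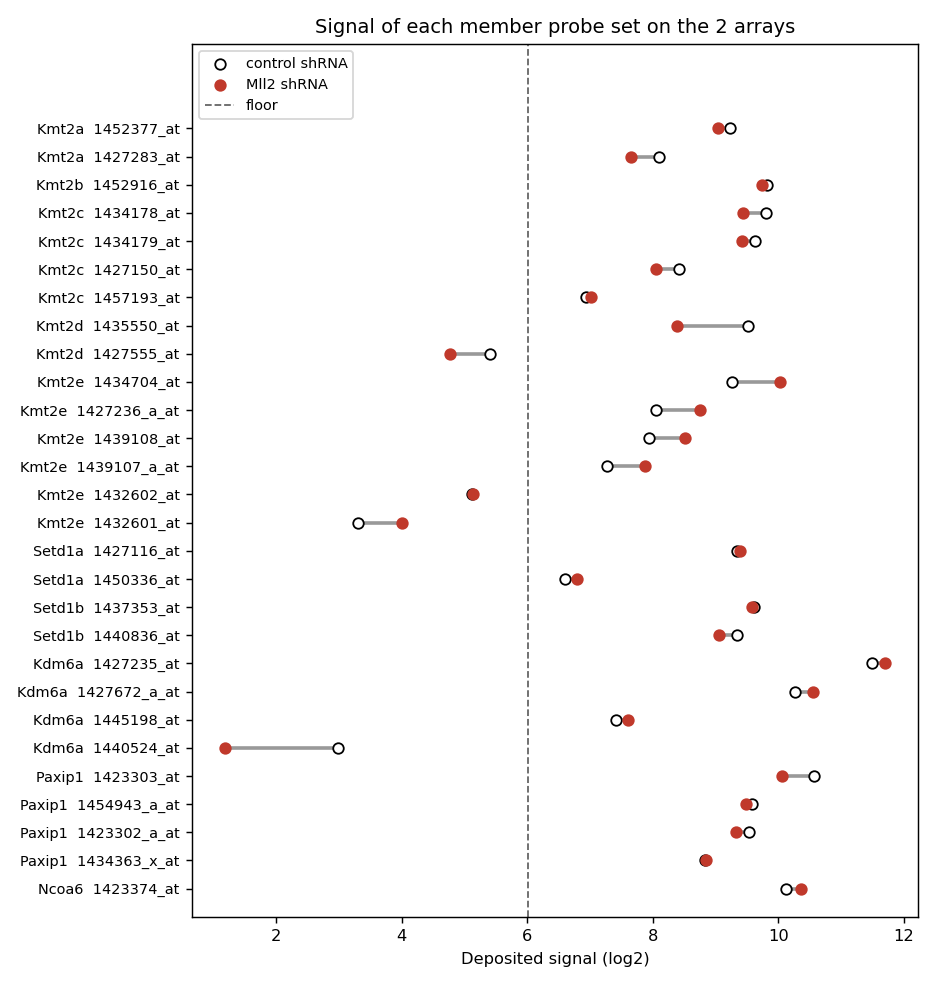
Deposited log2 signal (x axis) of the 28 probe sets of the 10 genes (y axis, gene and probe set). Open points are the control shRNA array, red points the Mll2 shRNA array, 1 array each, and the dashed line is the floor of 6.02; the longest bar above the floor belongs to Kmt2d 1435550_at (9.52 to 8.39), and the 4 Kmt2e probe sets above the floor all have the red point on the right.

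Kmt2d encodes the main enhancer H3K4 monomethyltransferase, and its transcript differed most among the 10 genes. The signal of probe set 1435550_at was 335 in Mll2 shRNA cells and 736 in control cells, which leaves 45.5% of the control signal. The log2 difference was -1.14, or 2.20-fold, against a spread of 0.33 at that level. Among 500 genes of similar level, 3 were as low or lower and 5 were at least 2-fold apart in either direction. These 3 were Bcar3, an adaptor of integrin and growth factor signalling (signals 328 and 789, 2.41-fold lower), Dll1, a Notch ligand (301 and 703, 2.33-fold lower), and Smagp, a small transmembrane protein (337 and 757, 2.25-fold lower). The other Kmt2d probe set, 1427555_at, gave log2 values of 4.78 in Mll2 shRNA cells and 5.40 in control cells. Both lie under the floor, so the Kmt2d difference rests on 1 probe set. In such bulk RNA, less transcript in every cell and fewer cells with the usual amount cannot be told apart.

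Kmt2b, the second gene that has carried the name Mll2, is the CXXC-domain methyltransferase of CpG-rich promoters. Its only probe set, 1452916_at, had a signal of 852 in Mll2 shRNA cells and 901 in control cells. The difference of -0.08 was within the spread of 0.27, and 158 of 500 genes of similar level lay lower. With the arrays scaled on the bacterial spike-in controls it was 0.04. Magohb, a gene whose expression in embryonic stem cells is known to need Kmt2b, had no probe set listed for it alone in the annotation used here and gives no value.

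Kmt2a, the founding member of the family and a partner in leukaemia fusions, was measured by a pair of probe sets annotated to the same source sequence. Probe set 1452377_at had signals of 528 in Mll2 shRNA cells and 598 in control cells, a difference of -0.18 with a spread of 0.34. Probe set 1427283_at was at 202 and 275, a difference of -0.45 with a spread of 0.41. Both were lower in Mll2 shRNA cells, and the mean was -0.32 ± 0.19 (SD over 2 probe sets). Only the dimmer one exceeded the spread at its level.

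Kmt2c, the paralogue of Kmt2d, had 4 measured probe sets. The brightest, 1434178_at, had a signal of 696 in Mll2 shRNA cells and 893 in control cells, a difference of -0.36 with a spread of 0.28. Probe set 1434179_at, annotated to the same source sequence, was at 686 and 795 (-0.21), and 1427150_at was at 265 and 343 (-0.37). These 3 were lower in Mll2 shRNA cells, but measured from 0 only the brightest passed the spread at its level. The dimmest, 1457193_at, was at 129 and 122, a difference of 0.08. The mean over the 4 probe sets was -0.22 ± 0.21 (SD). Of 500 genes with a level like that of the brightest probe set, 47 lay lower.

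Kmt2e, which binds H3K4-methylated chromatin through its PHD finger, was the only SET-domain gene of the 7 that was higher in Mll2 shRNA cells by more than the spread at its level. Its brightest probe set, 1434704_at, had a signal of 1045 in Mll2 shRNA cells and 615 in control cells, a log2 difference of 0.77 (1.70-fold) with a spread of 0.28, and 11 of 500 genes of similar level lay higher. The other measured probe sets pointed the same way. Probe set 1427236_a_at was at 429 and 264 (0.70), 1439108_at at 363 and 246 (0.57), and 1439107_a_at at 234 and 154 (0.60). All 4 exceeded the spread at their level, and their mean was 0.66 ± 0.09 (SD). The last 2 are annotated to the same source sequence and are not separate readings of the transcript. No source sequence is listed for 1427236_a_at, so whether it is a separate reading is not known. For comparison, of the 739 genes with at least 4 probe sets that passed the floor on each array, 7, Kmt2e among them, had every such probe set higher by at least 0.5, which is 0.947%, and 4 had every one lower by at least 0.5. The limit of 0.5 was chosen after the Kmt2e values were seen, and the minimum of 4 equals its own number of measured probe sets. The share therefore does not measure how rare Kmt2e is. A further 2 Kmt2e probe sets lay below the floor on both arrays, 1432602_at with log2 values of 5.13 in both and 1432601_at with signals of 16.0 in Mll2 shRNA cells and 9.92 in control cells.

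Setd1a and Setd1b, the catalytic subunits of the SET1 complexes, differed little. Setd1a had signals of 670 in Mll2 shRNA cells and 652 in control cells in probe set 1427116_at (0.04) and of 110 and 96.7 in 1450336_at (0.19). Setd1b had 767 and 785 in probe set 1437353_at (-0.03) and 531 and 650 in 1440836_at (-0.29). Measured from 0, all 4 differences were within the spread at their level, which ran from 0.29 to 0.48. The sign of the Setd1a value turned with quantile normalization (-0.02) and loess (-0.01), and that of Setd1b with spike-in scaling (0.08).

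**Figure D2:**
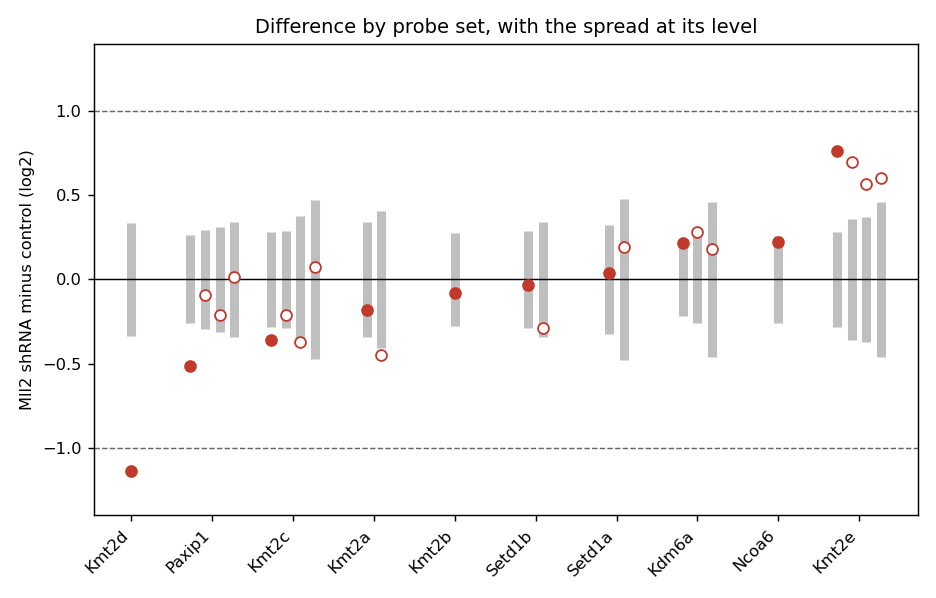
Difference between Mll2 shRNA and control cells (y axis, log2) for each of the 24 measured probe sets, grouped by gene (x axis) from the lowest to the highest. Filled points are the probe set used for the gene and open points its others; grey bars span the spread of the 500 genes nearest in level to either side of 0, and dashed lines mark 2-fold. Kmt2d lies at -1.14, below the dashed line, and the Kmt2e points lie between 0.57 and 0.77.

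Among the partners of KMT2C and KMT2D, Paxip1 was lower and Kdm6a and Ncoa6 were higher by small amounts. Paxip1 (PTIP) is a BRCT-domain adaptor of these complexes that also acts in DNA repair. Its brightest probe set, 1423303_at, had a signal of 1069 in Mll2 shRNA cells and 1525 in control cells, a difference of -0.51 with a spread of 0.26, and 11 of 500 genes of similar level lay lower. The other 3 did not show a difference of that size. Probe set 1423302_a_at was at 643 and 745 (-0.21), 1454943_a_at at 717 and 765 (-0.09), and 1434363_x_at at 462 and 458 (0.01). All 3 were within the spread at their level, and the last 2 are annotated to the same source sequence. No source sequence is listed for 1423303_at or 1423302_a_at. The mean over the 4 was -0.20 ± 0.23 (SD), the widest scatter among the 7 genes with at least 2 measured probe sets, and the median SD over 4713 genes with at least 2 probe sets past the floor on each array was 0.19.

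Kdm6a (UTX) removes methyl groups from lysine 27 of histone H3, the mark placed by Polycomb. Its 3 measured probe sets were all higher in Mll2 shRNA cells. The brightest, 1427235_at, had a signal of 3340 in Mll2 shRNA cells and 2878 in control cells (0.21, spread 0.22). Probe set 1427672_a_at was at 1494 and 1228 (0.28, spread 0.26), and 1445198_at at 194 and 170 (0.18, spread 0.46). The mean was 0.23 ± 0.05 (SD), the tightest of the 7 genes, although measured from 0 only 1 of the 3 probe sets exceeded the spread at its level. The fourth probe set, 1440524_at, was far below the floor, at log2 values of 1.19 in Mll2 shRNA cells and 2.99 in control cells. Ncoa6, a nuclear receptor coactivator subunit of the same complexes, had 1 probe set, 1423374_at, with a signal of 1308 in Mll2 shRNA cells and 1119 in control cells. Its difference of 0.22 was within the spread of 0.26.

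The 5 members that belong to the KMT2C and KMT2D complexes thus had 3 values below 0 (Kmt2d, Paxip1 and Kmt2c) and 2 above (Kdm6a and Ncoa6), with a median of -0.36. The 7 SET-domain genes had 5 below and 2 above 0, with a median of -0.08. Of all measured genes 46.5% were below 0. Both sets include Kmt2d, and the signs of Kmt2b, Setd1b and Setd1a changed with the scaling. Ordered from the lowest difference, the genes ran Kmt2d, Paxip1, Kmt2c, Kmt2a, Kmt2b, Setd1b, Setd1a, Kdm6a, Ncoa6, Kmt2e. Of the 9 steps between neighbours in this order, 2 were larger than the combined spread of both genes. These were the step from Kmt2d to Paxip1 (0.62, combined spread 0.42) and the step from Ncoa6 to Kmt2e (0.54, combined spread 0.38). The 7 steps within the run from Paxip1 to Ncoa6 were smaller than the combined spread. The genes were sorted by these same differences, so small steps between neighbours were largely fixed in advance. The steps that other genes sorted in this way would give were not computed, so these counts have no background beside them. The run is also not a group of equal values. Its ends lay at -0.51 (Paxip1, spread 0.26) and 0.22 (Ncoa6, spread 0.26).

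**Figure D3:**
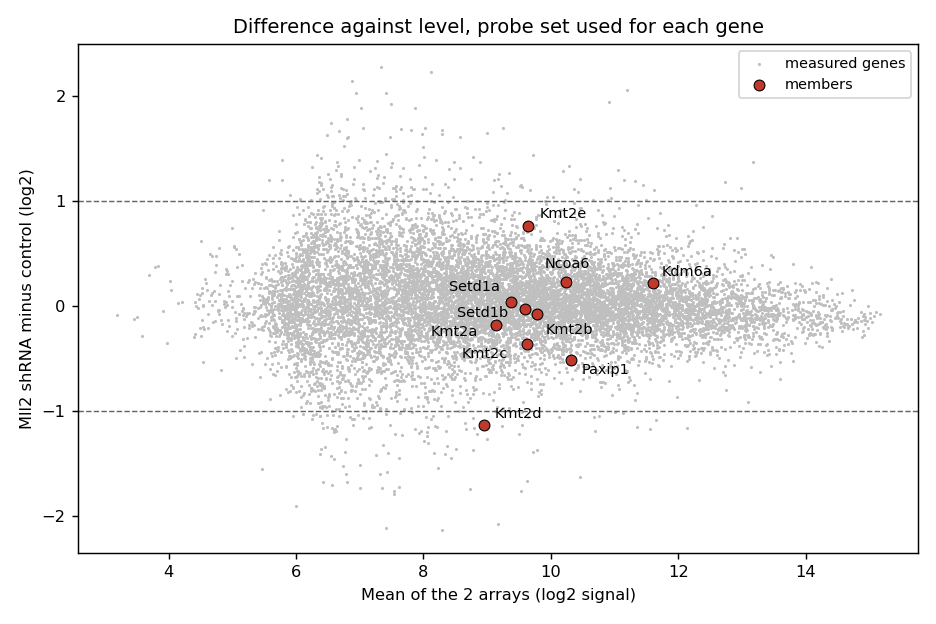
Difference between Mll2 shRNA and control cells (y axis, log2) against the mean of both arrays (x axis, log2 signal) for the 11805 measured genes (grey) and the 10 genes described (red), with dashed lines at 2-fold. Kmt2d is the only red point past a dashed line, at -1.14, and Kmt2e is the highest at 0.77.

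The other subunits and related enzymes were examined as lists of 23 genes, of which 20 were measured. None of the 20 was at least 2-fold lower and none at least 2-fold higher in the probe set used, beside the 0.983% and 1.47% of all measured genes. Their median difference was -0.05, with 11 below and 9 above 0, and they ran from -0.30 to 0.36.

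The 4 shared core subunits had a median of -0.0087. Dpy30, which binds ASH2L and stimulates methylation, had a signal of 9045 in Mll2 shRNA cells and 11132 in control cells, a difference of -0.30 with a spread of 0.19. Wdr5, the propeller protein that holds the complex together, was at -0.08, with -0.26 in its second probe set. Rbbp5 was at 0.08 and Ash2l at 0.07. Dpy30 was the only one of the 4 whose difference in the probe set used exceeded the spread at its level, beside 33.5% of all measured genes. Each of the other lists of subunits and related enzymes had 0 such genes.

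Of the KMT2A and KMT2B partners, Psip1 (LEDGF), a chromatin tether, was higher in all 3 of its probe sets. They were at 0.13 (spread 0.20), 0.25 (spread 0.23) and 0.21 (spread 0.27), so the probe set used lay within the spread. Hcfc2 was at 0.30 (spread 0.38), with 0.56 in its second probe set (spread 0.46). Hcfc1, a host cell factor that also belongs to the SETD1 complexes, was at -0.17 (spread 0.21), with -0.63 (spread 0.46) and -0.05 (spread 0.55) in the others. Men1, the menin subunit, was at 0.12 in its brightest probe set. Its other probe sets were above the floor on only 1 array and went opposite ways, 1443826_x_at lower by at least 2.23-fold and 1416348_at higher by at least 1.41-fold. Menin thus had no settled direction.

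Of the SETD1 partners not named above, the CpG-binding subunit Cxxc1 was at -0.17, with 0.36 in its second probe set, Wdr82, which links the complex to RNA polymerase II, was at -0.11, and Bod1l was at 0.11, with -0.15 in its second probe set. Pagr1a, the remaining subunit specific to the KMT2C and KMT2D complexes, was at 0.15 in its brightest probe set and at -0.11 and -0.14 in the others. The direction thus depended on the probe set for Cxxc1, Bod1l and Pagr1a.

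Kdm6b (JMJD3), an H3K27 demethylase related to Kdm6a, had signals of 812 in Mll2 shRNA cells and 975 in control cells (-0.26), and its second probe set gave -0.54 with a spread of 0.32. Uty, the Y-linked homologue of Kdm6a, had signals of 272 and 211 (0.36, spread 0.42). The acetyltransferases Ep300 and Crebbp, which act at enhancers with KMT2C and KMT2D, were at 0.06 and -0.06. Of the other enzymes described as H3K4 methyltransferases, Setd7 was at -0.26, Smyd1 at -0.26, Smyd2 at -0.25 and Smyd3 at -0.04, all within the spread at their level, and Prdm9 was below the floor on both arrays. The Smyd1 value lay close to the floor, with signals of 69.8 in Mll2 shRNA cells and 83.7 in control cells. Ash1l had no probe set listed for it alone.

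The choice of scaling mattered little for the members with large differences. Over 10 alternative settings, Kmt2d ran from -1.20 (loess) to -1.003 (a pseudocount equal to the floor) and was at least 2-fold lower in each. The changes of floor and of probe sets, 5 of the 10, left it at the same value because it has a single bright probe set, so that the scalings and the pseudocount are the settings that could move it. Kmt2e ran from 0.66 to 0.88, and Kmt2c from -0.42 to -0.22. Paxip1 ran from -0.55 to -0.20, the last being the mean over its probe sets. Spike-in scaling moved the median of all measured genes from 0.03 to 0.14, since it adds the same amount to every gene above the floor. That amount came from 18 spike-in probe sets, whose own differences had a mean of -0.12 and ran from -0.25 to 0.01. The size of the shift is therefore uncertain. Under this scaling Kmt2d was at -1.02, Paxip1 at -0.40, Kmt2c at -0.24, Kmt2a at -0.06, Kdm6a at 0.33, Ncoa6 at 0.34 and Kmt2e at 0.88. Kmt2c then lay within the spread at its level, and Kdm6a and Ncoa6 lay beyond it, so that 5 of the 10 genes did. The spread used there was that of the values as deposited. The share of all measured genes beyond it under this scaling was not computed, so this count has no background beside it. The same added amount turned the median of the 10 genes from -0.06 to 0.06.

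**Figure D4:**
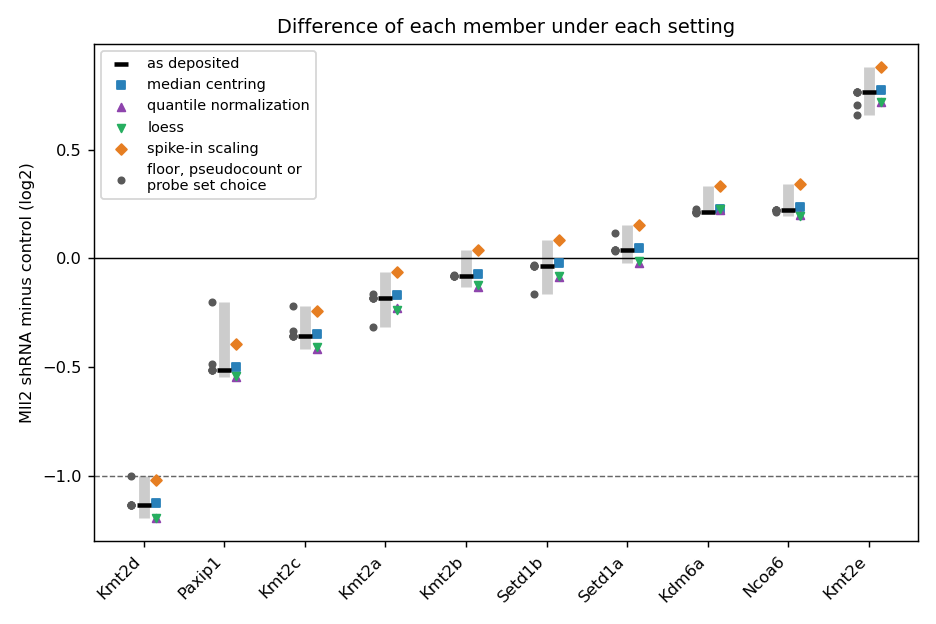
Difference between Mll2 shRNA and control cells (y axis, log2) of the 10 genes (x axis, lowest first) under each setting. Black bars are the values as deposited, coloured points the 4 other scalings, dark grey points the floor, pseudocount and probe set choices, grey bars the whole range, and the dashed line is 2-fold lower; Kmt2d stays between -1.20 and -1.003, and Kmt2b, Setd1b and Setd1a cross 0.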

How the data were processed

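The deposited table holds 1 log2 value per probe set for each of the 2 arrays. MAS5 made these log2 values for the authors, per the submitters' processing notes; its version was not given in the sources used here. After 2 to the power of each value, the 2% trimmed mean was 500.0 on both arrays. Of 45101 probe sets, 64 controls were set aside, and 34945 of the rest name 1 gene, updated through Entrez numbers to the RefSeq annotation of GRCm38.p6.

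From these values the differences, the floor (50th percentile) and the spread (1.4826 times the median absolute deviation of the 500 nearest genes) were computed. Settings tried were median centring, quantile normalization, loess, spike-in scaling (18 probe sets), no floor, a floor at the 30th or the 70th percentile, a pseudocount, the mean over probe sets, no probe sets with suffixes _s_at, _x_at and _a_at, and thresholds of 1.5-fold and 3-fold. Members and lists were chosen with earlier results of these data known. Named genes are all members, up to 4 of each partner list by size of difference, Magohb, and the genes near Kmt2d in level that were as low. Most partner lists have 4 measured genes or fewer, so nearly all are named. Marker genes were named after their values were seen. One listed gene is not reported here. The steps were tested on simulated data with planted changes larger than any member difference and with noise below the spreads given here. That test does not cover differences of the size reported. The number of arrays limits the precision. Python 3.11.15 with numpy 2.4.6 and pandas 2.3.3, and R 4.3.3 with limma 3.58.1, were used.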

Additional observations from a re-analysis of the deposited data

How the results depend on the processing

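With 1 array per group, no array could be left out. No paired analysis was possible because each group has 1 array. Of 182 recomputed values, 166 stayed within the spread at their level or within 1.5 times the count. The median of the members was judged by the SD over the 10 genes instead. Much of this was fixed in advance, because 4 or 5 of the 10 settings left each member at exactly its main value. The Paxip1 difference was -0.20 as the mean over its probe sets. At 3-fold 0 members were lower, and at 1.5-fold 1 was higher. Over all measured genes, the 116 lower and 173 higher at 2-fold became 482 and 494 under a floor at the 30th percentile, 38 and 50 at the 70th, 1744 and 1753 with no floor, 68 and 86 with a pseudocount, 553 and 873 at 1.5-fold and 18 and 27 at 3-fold, while spike-in scaling gave 262 higher. The share of higher genes among those 2-fold apart was 59.9% as deposited and 74.6% with spike-in scaling. Kmt2b, Setd1a and Setd1b changed sign under at least 1 scaling. Dim probe sets are noisy, so the 4 below the floor gave no difference.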
